A study of Mus musculus with 11 samples.

Results

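The 44 genes described here are the receptor chains of the interferons, the transcription factors of the interferon response and antiviral effectors that these factors switch on. They were chosen as the rows of the count table that carry 1 of 44 listed symbols, with the families of Ifit, Oas, Trim, GTPase and sensor genes left out of the list. All 44 of 44 symbols were found among 52550 genes, and all 44 passed the filter on low counts that left 15044 genes to test. They were measured by sequencing of RNA from colonic epithelium, in 5 mice on CD, a diet with cellulose, and 6 mice on FFD, a fiber-free diet. Every mouse was a RAG1 KO on the C57BL/6 strain, which lacks mature T and B cells. Each received its diet for 4 weeks and then dextran sulphate sodium (DSS), a polymer that injures the colonic epithelium, in the drinking water for 5 days. Their age was not given, and every mouse had received DSS, so the values compare the diets in injured colon only. The paper reports that RAG KO mice fed cellulose resisted colitis better, so diet and degree of injury cannot be told apart here. Each library came from 1 mouse. The sample titles carry the number 1 for every CD and 2 for every FFD mouse, so any effect of cage or batch tied to it cannot be told apart from that of the diet.

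Interferons are secreted proteins that alarm neighboring cells to infection and tissue injury. Type I interferons bind the receptor of Ifnar1 and Ifnar2, and the type II interferon binds Ifngr1 and Ifngr2. Type III interferons bind Ifnlr1 together with Il10rb and act mainly on epithelial cells of the gut and airways. Types I and III drive a complex that holds Stat2 and Irf9 to a DNA element called the interferon-stimulated response element (ISRE). Type II acts mainly through another element, the gamma-activated site (GAS), and many effectors answer to both.

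Total counts were between 10374154 and 28588266 reads per mouse, the lowest in FFD mouse 4, and were scaled by the trimmed mean of M-values (TMM), with factors of 1.03 to 1.08 for CD and 0.893 to 1.05 for FFD libraries. Levels are reads per 1000000 counted (CPM) after this scaling, or CPM per kb of exon where so stated, and differences are log2 fold changes of FFD over CD from edgeR's quasi-likelihood test, with Benjamini-Hochberg adjusted p over all tested genes and a threshold of 0.05. Of 10 epithelial markers, 9 were higher in FFD mice, where 18.2% of all tested genes were. Epcam, a surface protein of epithelial cells, was at 1619 to 1750.4 CPM with CD and 1811 to 2272 CPM in FFD mice. The T cell marker Cd3e had 8 counts in all CD and 10 counts in all FFD mice. Epithelial cells were shaken off the colon and passed over a Percoll gradient. In such bulk RNA, a change in the number of cells of a type and a change in RNA per cell cannot be told apart.

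Interferon effectors were broadly higher in FFD mice. Of the 44 genes, 32 (72.7%) rose, where 18.2% of all tested genes did, and 2 (4.55%) fell, where 18.6% of all tested genes did. In 26 of the 44 genes (59.1%) the values rose with no overlap between the 5 CD and 6 FFD mice, which was so for 8.77% of all tested genes. The median log2 fold change was 0.69 over the 44 genes and -0.033 over all tested genes. The rises lay between 0.29 (Parp10) and 1.75 (Ddx60), and 13 genes rose by over 1 on the log2 scale. The ISG15 system (4 of 4) and the ADP-ribosyltransferases with their partner (5 of 5) rose as whole groups. Of the rest, 7 of 9 intracellular antiviral effectors, 7 of 9 other induced genes, 3 of 5 receptor chains, 3 of 4 transcription factors, 2 of 3 nuclear body proteins and 1 of 5 membrane restriction factors rose. Both genes that fell, Ifitm2 and Ifitm3, belong to the membrane group. Without TMM, which moved the median of all genes to -0.19, 27 of the 44 rose and 2 fell, while the split of all genes went from 2740 higher and 2792 lower to 1636 higher and 4863 lower.

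**Figure D1:**
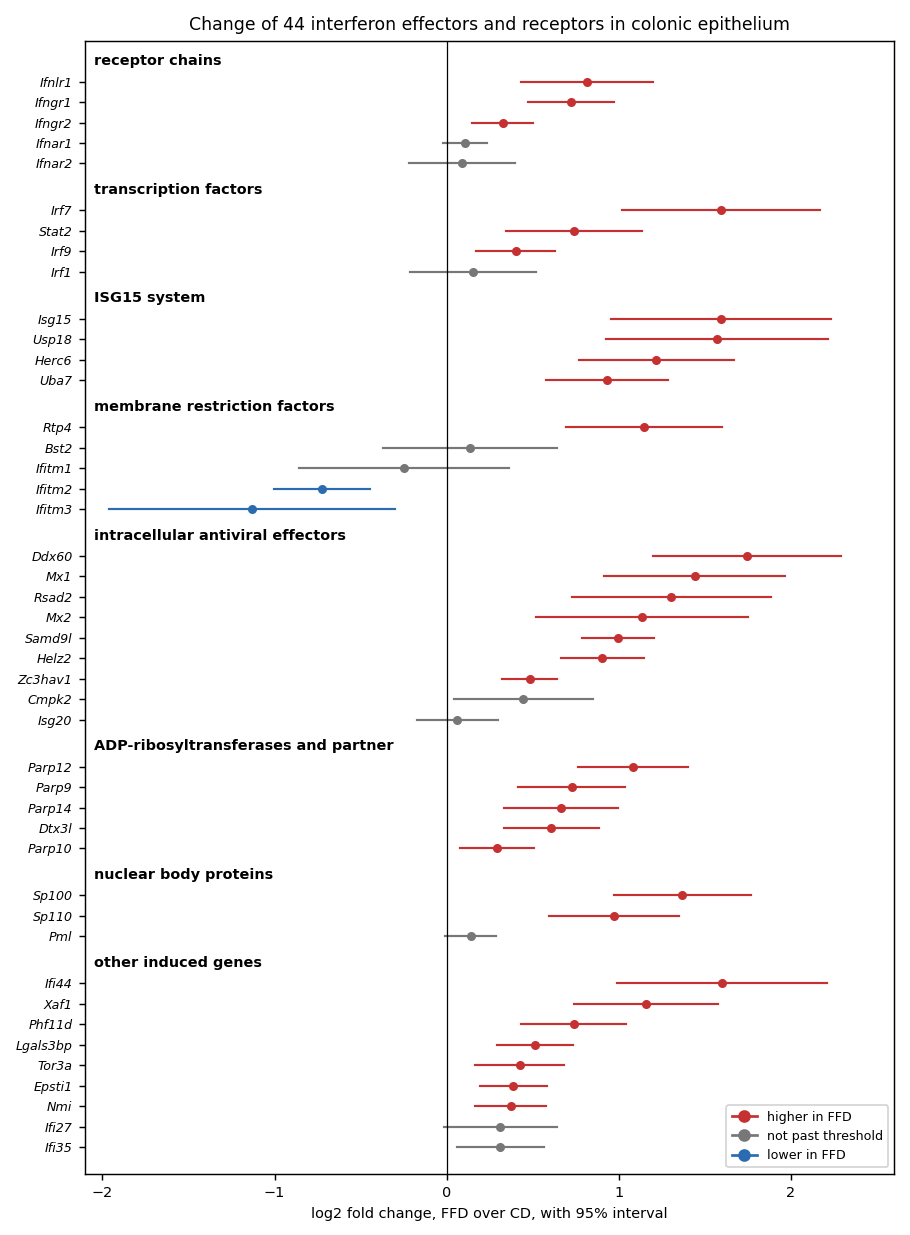
Log2 fold change of FFD over CD for each of the 44 genes (horizontal axis), grouped by role, with points for the estimates of edgeR and lines for 95% intervals. Red genes were higher in FFD (32), blue genes lower (2) and grey genes not past the threshold (10), and the membrane restriction factors are the only group that holds both risers and fallers.

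The receptor chains set the signal that a cell can receive, and they did not move as 1 group. Ifngr1, the chain that binds type II interferon, Ifngr2, its signaling partner, and Ifnlr1, the chain particular to type III interferon, rose in FFD mice, by 0.72, 0.32 and 0.82 on the log2 scale. Neither chain of the type I receptor passed the test. Per kb of exon, in CD mice, Ifngr1 (65.1 CPM per kb) and Ifngr2 (34.3) stood above Ifnar1 (6.42), Ifnlr1 (3.03) and Ifnar2 (1.97). In FFD mice the order was the same, with 108, 43.0, 6.93, 5.35 and 2.08 CPM per kb.

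Ifnlr1 (chr4:135686287-135708181) gave 10.05, 11.04, 11.99, 13.14 and 17.05 CPM in the 5 CD mice, and 14.9 (lowest), 22.4 (median) and 28.4 (highest) CPM in the FFD mice. FFD mice 4, 5 and 6 were highest, and the diets overlapped because FFD mouse 3 lay below CD mouse 5. The means were 12.7 ± 2.71 (SD, n = 5) and 22.4 ± 5.35 (SD, n = 6) CPM, with a log2 fold change of 0.82 (SE 0.18, adjusted p = 0.00419) by edgeR. Ifngr1 (chr10:19591949-19610229) was at 171, 175, 175, 190.3 and 216 CPM in CD mice and at 231 (lowest), 311 (median) and 366 (highest) CPM in FFD mice. Every FFD mouse lay above every CD mouse. The means were 185 ± 18.3 (SD, n = 5) and 306 ± 51.7 (SD, n = 6) CPM, with a log2 fold change of 0.72 (SE 0.12, adjusted p = 0.00128) by edgeR. Ifngr2 (chr16:91547072-91565623) was at 115, 123, 125, 134 and 150.1 CPM in CD mice and at 146 (lowest), 164 (median) and 185 (highest) CPM in FFD mice, with a log2 fold change of 0.32 (SE 0.083, adjusted p = 0.00896) by edgeR. CD mouse 2 was the highest of its diet and lay above FFD mice 4 and 5, and the remaining 4 CD mice lay below all FFD mice. The call for Ifngr2 was lost without TMM (0.17, adjusted p = 0.124 by edgeR).

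Ifnar1 (chr16:91485238-91507441) was at 36.5, 37.3, 38.3, 38.6 and 40.1 CPM in CD mice and at 37.7 (lowest), 41.5 (median) and 44.3 (highest) CPM in FFD mice. The range was narrow in both diets and FFD mice 3 and 5 lay among the CD mice. It had a log2 fold change of 0.11 (SE 0.059, 95% interval -0.019 to 0.24, adjusted p = 0.168) by edgeR, which turned to -0.045 without TMM. Ifnar2 (chr16:91372783-91405589) was at 5.41, 6.43, 6.52, 6.99 and 7.37 CPM in CD mice and at 4.83 (lowest), 7.24 (median) and 8.59 (highest) CPM in FFD mice. The diets overlapped over the whole CD range, FFD mouse 4 being the lowest of all 11 mice. It had a log2 fold change of 0.088 (SE 0.14, 95% interval -0.22 to 0.40, adjusted p = 0.659) by edgeR, which turned to -0.071 without TMM. Its exons overlap those of Gm21970 on the same strand. These intervals exclude a rise of the size estimated for Ifnlr1, though not a small one.

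The difference between the chains was tested in itself, as the log2 ratio of 2 genes within each mouse, over all 10 pairs of receptor chains and all 6 pairs of transcription factors, with p-values adjusted over the 16 pairs, of which 8 passed. Such a ratio depends little on how a library is scaled. The log2 ratio of Ifnar1 to Ifnlr1 went from 1.62 ± 0.26 (SD, n = 5) in CD to 0.91 ± 0.33 (SD, n = 6) in FFD mice (exact two-sided permutation test, p = 0.00866, adjusted p = 0.0173). The ratio of Ifnar2 to Ifnlr1 went from -0.93 ± 0.31 (SD, n = 5) in CD to -1.68 ± 0.45 (SD, n = 6) in FFD mice, with no overlap (exact two-sided permutation test, p = 0.00433, adjusted p = 0.0139). Both type I chains thus fell relative to Ifnlr1, and both also fell relative to Ifngr1, Ifnar1 by 0.60 (exact two-sided permutation test, p = 0.00433, adjusted p = 0.0139) and Ifnar2 by 0.65 (exact two-sided permutation test, p = 0.00866, adjusted p = 0.0173). Relative to Ifngr2 neither passed after adjustment, the ratio of Ifnar1 differing by -0.22 (exact two-sided permutation test, p = 0.0346, adjusted p = 0.0616) and that of Ifnar2 by -0.26 (exact two-sided permutation test, p = 0.126, adjusted p = 0.155). Here 0.00433 is the smallest p that 5 against 6 mice allow. The ratio of Ifnlr1 to Ifngr1 differed by 0.10 between the diets (exact two-sided permutation test, p = 0.463, adjusted p = 0.494), and that of Ifngr1 to Ifngr2 by 0.39 (exact two-sided permutation test, p = 0.0390, adjusted p = 0.0623). That of Ifnlr1 to Ifngr2 differed by 0.48 (exact two-sided permutation test, p = 0.0693, adjusted p = 0.0924).

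The transcription factors divided likewise. Irf7, the factor that amplifies type I interferon transcription and is itself strongly interferon-induced, was among the genes with the largest rise (1.59 on the log2 scale). Stat2 and Irf9, which act together in the complex at the ISRE, rose less (0.74 and 0.40), and Irf1, a factor whose own gene is known to answer through the GAS, did not pass the test. Irf7 (chr7:141262706-141266481) was at 33.5, 44.8, 55.9, 56.8 and 67.2 CPM in CD mice and at 91.6 (lowest), 135 (median) and 296 (highest) CPM in FFD mice. The diets did not overlap, and FFD mouse 1 stood far above the next FFD mouse, at 148 CPM. The means were 51.6 ± 12.9 (SD, n = 5) and 156 ± 71.3 (SD, n = 6) CPM, with a log2 fold change of 1.59 (SE 0.27, adjusted p = 0.00152) by edgeR, and 1.30 (adjusted p = 0.000993) without FFD mouse 1. Its exons overlap those of Phrf1 on the opposite strand, and whether reads were counted by strand is unknown.

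Stat2 (chr10:128270559-128292849) was at 29.3, 38.0, 40.8, 55.2 and 58.0 CPM in CD mice and at 59.2 (lowest), 68.5 (median) and 97.7 (highest) CPM in FFD mice. No FFD mouse lay below CD mouse 5, the highest of its diet, though FFD mouse 2 came close. It had a log2 fold change of 0.74 (SE 0.18, adjusted p = 0.00781) by edgeR. Irf9 (chr14:55603571-55610030) was at 40.0, 45.9, 55.8, 56.5 and 58.1 CPM in CD mice and at 56.8 (lowest), 67.8 (median) and 79.6 (highest) CPM in FFD mice. FFD mouse 2 lay below CD mouse 5 and the other 5 FFD mice lay above all CD mice. The difference was a log2 fold change of 0.40 (SE 0.11, adjusted p = 0.0107) by edgeR and 0.25 (adjusted p = 0.0836) without TMM. Its exons overlap those of Rnf31 on the same strand. Irf1 (chr11:53770014-53778374) was at 177, 217, 232, 312 and 315 CPM in CD mice and at 224 (lowest), 259 (median) and 361 (highest) CPM in FFD mice. CD mice 4 and 5 lay above 4 of the 6 FFD mice, so the ranges of the diets were largely shared. The difference was a log2 fold change of 0.15 (SE 0.17, 95% interval -0.21 to 0.52, adjusted p = 0.504) by edgeR and -0.0098 without TMM. Irf1 nevertheless was the factor with the highest level per kb of exon, 63.0 CPM per kb in CD and 70.1 in FFD mice, against 13.7 and 41.2 for Irf7, 9.52 and 12.6 for Irf9 and 7.47 and 12.5 for Stat2.

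Among the 6 pairs of factors, the log2 ratio of Irf1 to Irf7 went from 2.28 ± 0.36 (SD, n = 5) in CD to 0.91 ± 0.64 (SD, n = 6) in FFD mice, with no overlap (exact two-sided permutation test, p = 0.00433, adjusted p = 0.0139). In FFD mouse 1 this ratio was -0.24, so Irf7 had passed Irf1 there. The ratio of Stat2 to Irf1 rose by 0.59 (exact two-sided permutation test, p = 0.00433, adjusted p = 0.0139) and that of Irf7 to Irf9 by 1.12 (exact two-sided permutation test, p = 0.00433, adjusted p = 0.0139), both without overlap. The ratio of Irf1 to Irf9 differed by -0.25 (exact two-sided permutation test, p = 0.182, adjusted p = 0.208). Stat2 fell relative to Irf7 by 0.78, with overlap (exact two-sided permutation test, p = 0.00866, adjusted p = 0.0173). Its ratio to Irf9 differed by 0.35 and did not pass after adjustment (exact two-sided permutation test, p = 0.0519, adjusted p = 0.0756).

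**Figure D2:**
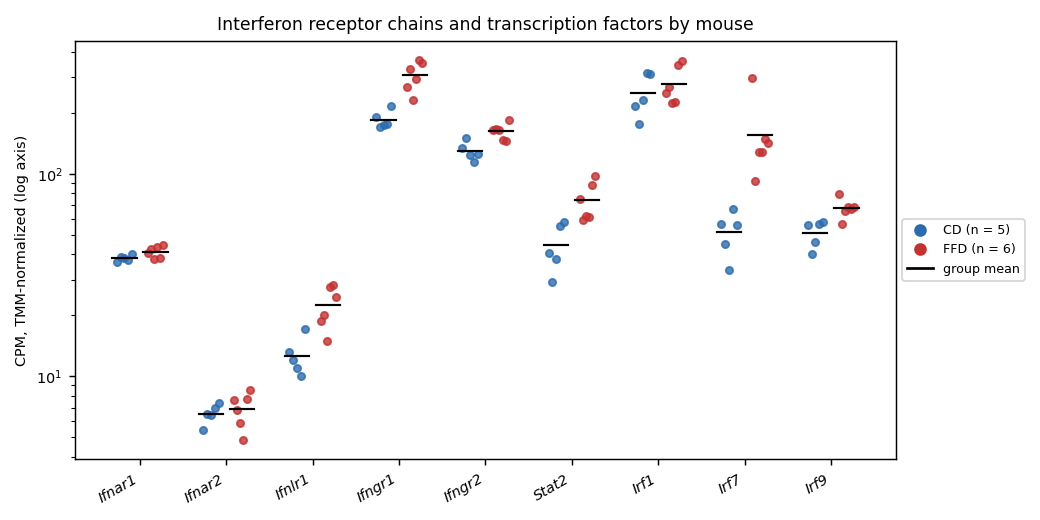
TMM-normalized CPM (log axis) of the 5 receptor chains and 4 transcription factors in each mouse, blue for the 5 CD mice, red for the 6 FFD mice and black bars for group means. Ifngr1, Stat2 and Irf7 show no overlap between the diets, Ifnar2 and Irf1 overlap widely, and Ifnar1 overlaps in FFD mice 3 and 5. The highest Irf7 point is FFD mouse 1 at 296 CPM.

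Promoters of the 44 genes were searched for the cores of both elements, since most of these genes rose while some fell or did not pass the test. The RefSeq promoter table for GRCm38.p6, which gives 250 bases before to 50 bases after the start of a gene, held 35 of the 44. It lacked Usp18, Rtp4, Mx1, Mx2, Parp9, Parp10, Parp14 and Tor3a, which all rose, and Ifi27, which did not pass the test. The genes not searched were thus mostly risers. The core of the ISRE was searched as GAAANNGAAA and that of the GAS as TTCNNNGAA, on both strands, the GAS core being its own reverse complement. A gene was counted when any of its listed promoters held a match. The ISRE core was present in 7 of the 35 genes (20.0%) and in 3.99% of all 27025 genes with a promoter. By change, it was in 4 of 24 genes that rose (Stat2, Isg15, Rsad2 and Ddx60), in both genes that fell (Ifitm2 and Ifitm3) and in 1 of 9 that did not pass the test (Bst2). The GAS core was present in 7 of the 35 (20.0%) and in 9.55% of the 27025 genes. It was in 0 of the 24 genes that rose, in 1 of the 2 that fell (Ifitm3) and in 6 of the 9 that did not pass the test (Ifnar1, Ifnar2, Irf1, Bst2, Isg20 and Ifi35). A match is a string of letters and no measured binding, and a promoter without one may hold an element outside this window or spelled otherwise. The sequences of the ISRE cores are shown because they stand beside genes of both directions, with the cores in capitals, read along the strand of the gene, and the opposite strand's core as TTTCNNTTTC.
Isg15 (chr4:156200860-156200911, minus strand): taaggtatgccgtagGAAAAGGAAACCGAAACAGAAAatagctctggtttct
Stat2 (chr10:128270261-128270300, plus strand): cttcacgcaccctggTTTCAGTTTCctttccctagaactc
Rsad2 (chr12:26456548-26456587, minus strand): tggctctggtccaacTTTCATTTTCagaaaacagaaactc
Ddx60 (chr8:61928019-61928086, plus strand): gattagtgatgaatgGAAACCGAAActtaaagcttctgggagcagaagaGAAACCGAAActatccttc
Bst2 (chr8:71537572-71537617, minus strand): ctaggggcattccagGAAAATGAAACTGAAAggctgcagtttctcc
Ifitm2 (chr7:140955983-140956022, minus strand): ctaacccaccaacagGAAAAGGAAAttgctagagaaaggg
Ifitm3 (chr7:141010716-141010742, minus strand): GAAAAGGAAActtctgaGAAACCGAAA

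Isg15 carried 3 overlapping matches, the first beginning at position -78 from the gene's start, and Ddx60 carried 2 separate ones with the same 10 letters, the first at -53. Ifitm2 and Ifitm3 shared the same letters, GAAAAGGAAA, which Isg15 also holds, so this core stood beside genes of both directions. In Ifitm3 the matches lie just after the start, within the transcript. The GAS cores of Irf1 and Ifnar2, 2 genes of the signaling arm that did not pass the test, are shown for comparison in the same way.
Irf1 (chr11:53769909-53769947, plus strand): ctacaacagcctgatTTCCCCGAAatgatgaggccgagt
Ifnar2 (chr16:91372554-91372592, plus strand): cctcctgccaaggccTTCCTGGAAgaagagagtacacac

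The ISG15 system, which attaches the ubiquitin-like protein Isg15 to other proteins, rose in all of its 4 members with no overlap between the diets. Isg15 is the modifier, Uba7 its activating enzyme, Herc6 its main ligase in the mouse and Usp18 the protease that removes it and also restrains the type I receptor. Ube2l6, the conjugating enzyme, is not among the 44 genes and rose as well, with a log2 fold change of 0.78 (SE 0.20, adjusted p = 0.0094) by edgeR.

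Isg15 was at 10.4, 12.3, 16.5, 25.0 and 25.0 CPM in CD mice and at 30.5 (lowest), 47.8 (median) and 96.7 (highest) CPM in FFD mice. FFD mouse 1 was again the highest and FFD mouse 2 the lowest of its diet, just above the highest CD mice, with a log2 fold change of 1.59 (SE 0.30, adjusted p = 0.00225) by edgeR. Uba7 was at 40.0, 43.1, 57.9, 61.0 and 64.2 CPM in CD mice and at 71.2 (lowest), 98.7 (median) and 128 (highest) CPM in FFD mice. Here FFD mice 5 and 6 were highest and FFD mouse 3 lowest, with a log2 fold change of 0.93 (SE 0.16, adjusted p = 0.00185). Herc6 was at 9.80, 11.3, 18.8, 19.0 and 22.0 CPM in CD mice and at 28.6 (lowest), 36.6 (median) and 50.5 (highest) CPM in FFD mice. CD mice 2 and 3 were lowest and FFD mouse 5 highest, with a log2 fold change of 1.22 (SE 0.21, adjusted p = 0.00167). Usp18 lay between 6.66 and 16.6 CPM in CD and between 21.4 and 55.3 CPM in FFD mice, with a log2 fold change of 1.57 (SE 0.30, adjusted p = 0.0024). Per kb of exon, the modifier stood at 23.6 CPM per kb in CD and 71.3 in FFD mice, above Uba7 (7.96 and 15.2), Usp18 (4.03 and 12.0) and Herc6 (1.74 and 4.06). Exons of Uba7 and Herc6 overlap predicted genes on the same strand (Gm20661 and Gm45193), and those of Usp18 overlap Gm44148 on the opposite strand.

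The membrane restriction factors went both ways. The Ifitm proteins sit in membranes and hinder the fusion of viruses, Bst2 (tetherin) holds budding virus at the cell surface, and Rtp4 is a receptor transporter induced by interferon. Ifitm2 and Ifitm3 fell in FFD mice by 0.72 and 1.13 on the log2 scale, Rtp4 rose by 1.15, and Ifitm1 and Bst2 did not pass the test.

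Ifitm2 (chr7:140954837-140955987) was at 58.1, 61.6, 75.2, 79.9 and 80.3 CPM in CD mice and at 33.3 (lowest), 40.9 (median) and 53.1 (highest) CPM in FFD mice. Every FFD mouse lay below every CD mouse, FFD mouse 6 being lowest. The diets had means of 71.0 ± 10.5 (SD, n = 5) and 42.9 ± 7.99 (SD, n = 6) CPM and a log2 fold change of -0.72 (SE 0.13, adjusted p = 0.00193) by edgeR. Ifitm3 (chr7:141009586-141010770), its near neighbor on the same chromosome, was at 25.3, 27.5, 48.3, 52.0 and 65.8 CPM in CD mice and at 6.80 (lowest), 15.1 (median) and 41.0 (highest) CPM in FFD mice. FFD mouse 6 was lowest here too, while FFD mice 1 and 3 lay above CD mice 1 and 5, so the diets overlapped. The diets had means of 43.8 ± 17.2 (SD, n = 5) and 19.8 ± 12.6 (SD, n = 6) CPM and a log2 fold change of -1.13 (SE 0.39, adjusted p = 0.0354). The call for Ifitm3 rested on single mice. Its adjusted p by edgeR lay between 0.0538 and 0.0964 when CD mouse 2, 3 or 4 or FFD mouse 2, 4, 5 or 6 was left out. The log2 fold changes were then -1.04, -1.08, -0.93, -1.03, -1.04, -1.09 and -0.95 in that order. FFD mouse 6 also had the lowest level of 10 genes of dividing cells (mean log2 CPM 4.92, against 5.67 to 6.22 in the other FFD and 6.25 to 6.80 in the CD mice). Genes of dividing cells fell with diet in 7 of 10 cases, where 18.6% of all tested genes did. The part of the cell mixture in the fall of both Ifitm genes was not tested. Ifitm1, Ifitm2 and Ifitm3 are close relatives, so reads that map to several of them are a source of uncertainty. Exons of Ifitm2 also overlap those of Gm45717 on the same strand.

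Rtp4 was at 9.93, 12.0, 14.4, 16.0 and 16.6 CPM in CD mice and at 19.1 (lowest), 29.1 (median) and 47.6 (highest) CPM in FFD mice. FFD mouse 1 was highest and FFD mouse 2 lowest of its diet, without overlap, with a log2 fold change of 1.15 (SE 0.21, adjusted p = 0.00214) by edgeR. Exons of Rtp4 overlap those of Gm45338 on the same strand. Bst2, whose promoter holds both cores, lay between 28.6 and 52.4 CPM in CD mice and between 28.0 and 74.8 CPM in FFD mice. FFD mouse 1 was the highest by far, and the other 5 FFD mice lay within the CD range or below it. The difference was a log2 fold change of 0.14 (SE 0.23, 95% interval -0.37 to 0.64, adjusted p = 0.678), which turned to -0.13 without FFD mouse 1 and to -0.014 without TMM. Ifitm1 was scarce, at 0.616 ± 0.210 (SD, n = 5) and 0.515 ± 0.117 (SD, n = 6) CPM, with a log2 fold change of -0.25 (SE 0.28, adjusted p = 0.514). In CD mice Ifitm2 had the highest level per kb of exon of all 44 genes, 108 CPM per kb against 65.5 in FFD mice, and Ifitm3 went from 64.6 to 29.2.

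**Figure D3:**
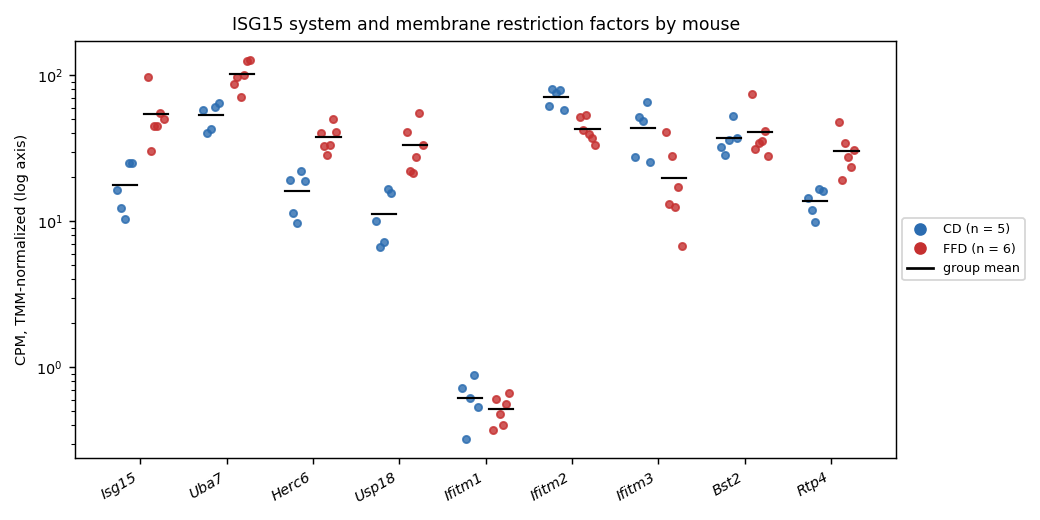
TMM-normalized CPM (log axis) of the 4 genes of the ISG15 system and the 5 membrane restriction factors in each mouse, blue for the 5 CD mice, red for the 6 FFD mice and black bars for group means. The ISG15 system and Rtp4 are higher in all FFD mice, Ifitm2 is lower in all of them, and Ifitm3 is lower on average with overlap.

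The intracellular antiviral effectors act on viral RNA, its translation and its copying, and 7 of 9 rose. Samd9l, which restricts poxviruses and slows translation, Helz2, a helicase and nuclear receptor coactivator, and Ddx60, a helicase tied to RNA sensing, had the smallest p-values. Samd9l was at 68.9, 73.5, 80.3, 88.8 and 101 CPM in CD mice and at 151 (lowest), 161 (median) and 188 (highest) CPM in FFD mice. The FFD mice lay close together, all above the CD mice, and its log2 fold change of 0.99 (SE 0.10, adjusted p = 0.000531) by edgeR came with the smallest p of the 44 genes. Helz2 was at 46.6, 51.3, 59.5, 60.8 and 63.8 CPM in CD mice and at 84.9 (lowest), 111 (median) and 119 (highest) CPM in FFD mice, with a log2 fold change of 0.90 (SE 0.11, adjusted p = 0.000737) and no overlap. Ddx60 was at 9.84, 10.7, 16.7, 17.6 and 23.0 CPM in CD mice and at 33.0 (lowest), 48.4 (median) and 85.2 (highest) CPM in FFD mice. FFD mouse 1 stood far above the next FFD mouse (52.1 CPM), and the log2 fold change of 1.75 (SE 0.25, adjusted p = 0.00107), the largest rise of the 44 genes, was 1.55 without that mouse.

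The further effectors of this group were scarcer or moved less. Mx1 and Mx2, GTPases that block viral replication complexes, rose by 1.44 and 1.13, from 3.73 to 10.2 and from 2.01 to 4.41 CPM in the mean. Rsad2 (viperin), which makes a chain-terminating nucleotide, rose by 1.30 (adjusted p = 0.00325 by edgeR), and FFD mouse 2 lay below CD mouse 4. Its neighbor on chromosome 12, Cmpk2, which supplies the substrate for Rsad2, did not pass the test. The log2 fold change of Cmpk2 was 0.45 (SE 0.19, 95% interval 0.043 to 0.85, adjusted p = 0.0773 by edgeR). Cmpk2 passed when FFD mouse 2 was left out (0.54, adjusted p = 0.0313 by edgeR). It also passed with DESeq2 as a test (0.47, adjusted p = 0.0457). Zc3hav1, which marks viral RNA for decay, rose by 0.48 (adjusted p = 0.00112 by edgeR) with no overlap. Isg20, an exonuclease, did not pass the test, with a log2 fold change of 0.061 (SE 0.11, 95% interval -0.18 to 0.30, adjusted p = 0.69), and turned to -0.090 without TMM.

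All 4 ADP-ribosyltransferases and their partner Dtx3l rose. Parp9 and the ubiquitin ligase Dtx3l form a complex that acts on chromatin and viral proteins, and Parp10, Parp12 and Parp14 attach single ADP-ribose units. Parp12 was at 85.1, 88.1, 99.2, 116 and 123 CPM in CD mice and at 158 (lowest), 209.5 (median) and 282 (highest) CPM in FFD mice. FFD mice 5 and 6 were highest and the diets did not overlap, with a log2 fold change of 1.08 (SE 0.15, adjusted p = 0.000869) by edgeR. Parp9 was at 90.1, 108, 109, 144 and 155 CPM in CD mice and at 172 (lowest), 194 (median) and 252 (highest) CPM in FFD mice, with a log2 fold change of 0.73 (SE 0.14, adjusted p = 0.00275). Dtx3l was at 91.3, 102, 107, 128 and 142 CPM in CD mice and at 152 (lowest), 161 (median) and 213 (highest) CPM in FFD mice, with a log2 fold change of 0.61 (SE 0.13, adjusted p = 0.00352). In both genes CD mice 4 and 5 were the highest of their diet and lay just below the lowest FFD mice. Their exons overlap on opposite strands, and their counts may share reads. Parp14 rose by 0.66 without overlap and Parp10 by 0.29 with overlap. Parp10, whose exons overlap those of Plec on the same strand, had an adjusted p of 0.0355 by edgeR. It went to between 0.0549 and 0.0764 when CD mouse 1, 2 or 3 or FFD mouse 1, 5 or 6 was left out. The log2 fold changes were then 0.30, 0.24, 0.28, 0.28, 0.27 and 0.24 in that order. Without TMM the value was 0.14 (adjusted p = 0.257 by edgeR).

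Sp100 and Sp110 rose, whereas Pml, which builds the nuclear bodies that also hold Sp100, did not pass the test. Sp100 was at 12.3, 14.1, 19.3, 22.1 and 24.0 CPM in CD mice and at 32.3 (lowest), 49.6 (median) and 59.6 (highest) CPM in FFD mice, with a log2 fold change of 1.37 (SE 0.19, adjusted p = 0.000863) by edgeR. Sp110 was at 13.0, 14.4, 16.4, 22.6 and 22.8 CPM in CD mice and at 25.5 (lowest), 33.6 (median) and 47.1 (highest) CPM in FFD mice, with a log2 fold change of 0.97 (SE 0.18, adjusted p = 0.00198). In both genes every FFD mouse lay above every CD mouse. Pml was at 31.5, 32.5, 35.8, 36.3 and 37.3 CPM in CD mice and at 34.5 (lowest), 37.7 (median) and 41.5 (highest) CPM in FFD mice. These ranges overlapped. It had a log2 fold change of 0.14 (SE 0.068, 95% interval -0.0073 to 0.29, adjusted p = 0.124), and -0.014 without TMM. The interval of Pml lies below the estimates of Sp100 and Sp110, but the difference between the genes was not tested. Sp100 and Sp110 are relatives in 1 cluster on chromosome 1 and read sharing with other copies there is uncertain.

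Of the 9 other induced genes, 7 rose. Xaf1, which opposes inhibitors of apoptosis, was at 6.48, 7.45, 11.1, 12.5 and 13.6 CPM in CD mice and at 16.0 (lowest), 23.3 (median) and 28.4 (highest) CPM in FFD mice, with a log2 fold change of 1.16 (SE 0.19, adjusted p = 0.00151) by edgeR. Ifi44, a cytoplasmic protein of the response, was at 7.18, 8.03, 12.5, 13.3 and 14.1 CPM in CD mice and at 18.9 (lowest), 29.0 (median) and 62.8 (highest) CPM in FFD mice. FFD mouse 1 was far above the next (33.2 CPM), and the log2 fold change of 1.60 (SE 0.28, adjusted p = 0.00185) was 1.31 without it. Phf11d, a PHD finger protein with close copies in the genome, was at 14.7, 15.7, 19.0, 22.2 and 23.6 CPM in CD mice and at 25.3 (lowest), 30.5 (median) and 38.7 (highest) CPM in FFD mice, with a log2 fold change of 0.74 (SE 0.14, adjusted p = 0.00243). None of these 3 genes overlapped between the diets. Lgals3bp, a secreted glycoprotein that binds galectins, rose by 0.51 and had the highest level per kb of exon of the 44 genes in FFD mice (119 CPM per kb, against 83.7 in CD mice). Tor3a rose by 0.42, Epsti1 by 0.39 and Nmi, a partner of Stat proteins, by 0.37. The calls for Nmi (adjusted p = 0.0614) and Tor3a (adjusted p = 0.101) were lost without TMM by edgeR. Ifi27 (0.31, adjusted p = 0.124 by edgeR, 95% interval -0.016 to 0.64) and Ifi35, the binding partner of Nmi (0.31, adjusted p = 0.0529, 95% interval 0.058 to 0.56), did not pass the test. Ifi35 lay close to the threshold. It passed when CD mouse 4 or 5 (0.36 and 0.40) or FFD mouse 2, 3 or 4 (0.35, 0.35 and 0.34) was left out. Ifi35 also passed with DESeq2 as a test, with its size factors in edgeR, with the stricter filter and with limma-voom.

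**Figure D4:**
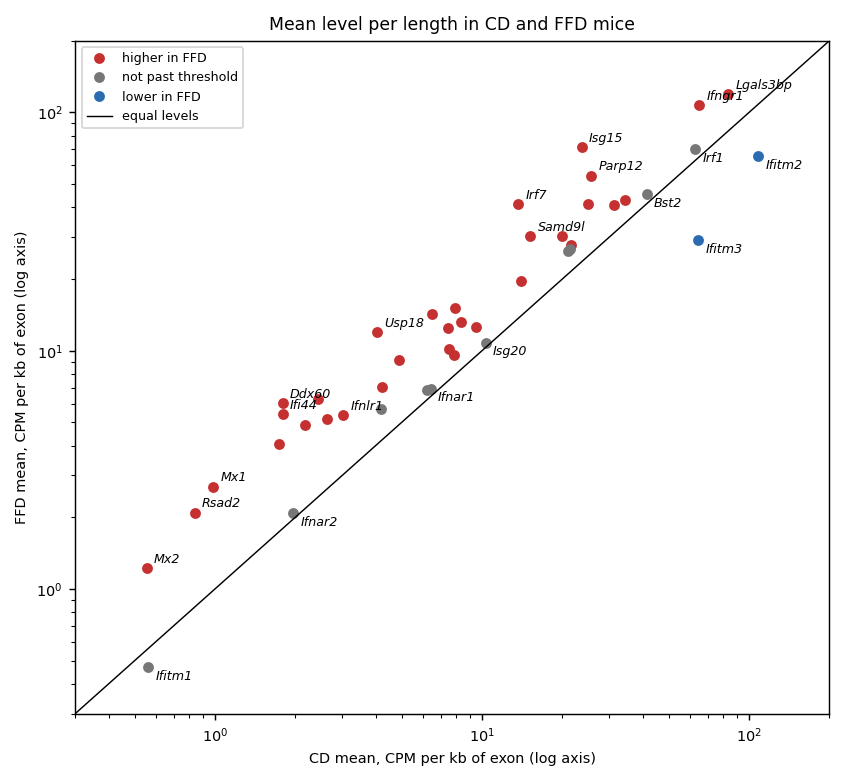
Mean CPM per kb of exon of the 44 genes in CD mice (horizontal) and FFD mice (vertical), both on log axes, with a line of equal levels and colors for the call. Most points lie above the line, Ifitm2 and Ifitm3 lie below it among the highest levels, and Mx2 and Ifitm1 mark the low end.

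The mice of a diet differed, and the 32 genes that rose tended to share their order. Among the FFD mice, FFD mouse 5 was the highest in 14, FFD mouse 1 in 12 and FFD mouse 6 in 6 of these genes, while FFD mouse 2 was the lowest in 16 and FFD mouse 3 in 12. Among the CD mice, CD mouse 4 was the highest in 15 and CD mouse 5 in 13, while CD mouse 2 was the lowest in 20 and CD mouse 3 in 9. The log2 level of a mouse relative to the mean of all mice was averaged over all 44 genes, risers or not. In CD mice this average ran from -0.59 (CD mouse 2) to -0.10 (CD mouse 4). In FFD mice it ran from 0.055 (FFD mouse 2) to 0.55 (FFD mouse 1). FFD mouse 1 led in Irf7, Isg15, Mx1, Ddx60, Ifi44 and Rtp4, and FFD mouse 5 led in Usp18, Herc6, Parp9, Parp12, Parp14 and Sp110, so the mouse at the top was not the same for all genes.

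**Figure D5:**
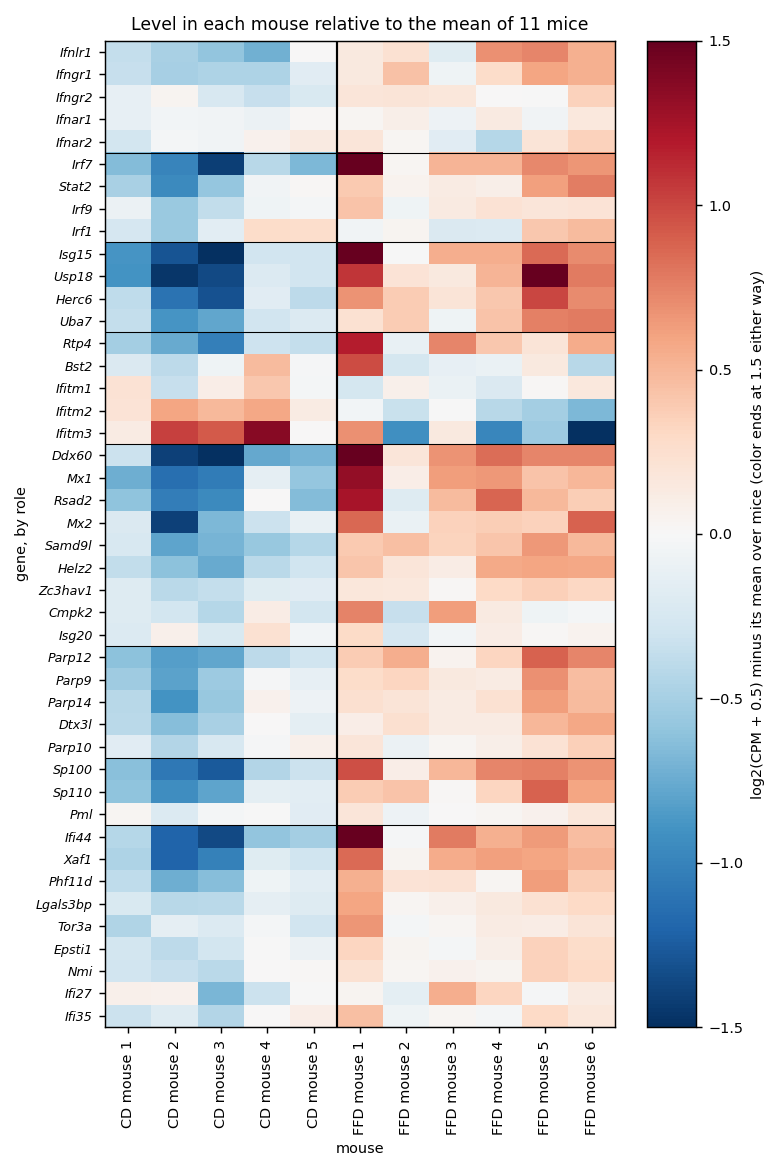
Level of the 44 genes (vertical, by role) in each of the 11 mice (horizontal), as log2(CPM + 0.5) minus its mean over the mice, red above and blue below, with the color ending at 1.5 either way. The 6 FFD columns are mostly red, Ifitm2 and Ifitm3 run the opposite way, and FFD mouse 1 has the strongest red for Irf7, Mx1 and Ifi44.

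Of 38 further genes of the interferon pathway, 25 passed the filter on low counts, and 8 rose, 1 fell and 16 did not pass the test, with a median log2 fold change of 0.13. Of all tested genes, 18.2% rose and 18.6% fell. The interferons themselves were at the limit of detection. Ifna2, Ifna4, Ifna11 and Ifne had 0 counts in every mouse, which allows a level of up to 0.0240 CPM over the CD and 0.0228 CPM over the FFD mice at a floor of 3 counts, for counting error only, and 8 other type I and III genes had at most 5 counts in all mice of a diet. Ifnb1 had 0 in CD and 1 in FFD mice, Ifnl2 0 and 1, Ifnl3 4 and 2, and Ifna5 5 and 0. Many of these genes have near-identical copies, and these counts cannot show a difference. Ifng, the type II interferon, had 47 counts in CD and 76 in FFD mice and did not pass the test, with a log2 fold change of 0.73 (SE 0.39, 95% interval -0.11 to 1.57, adjusted p = 0.156) by edgeR.

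Among genes of receptor signaling, Il10rb, Jak1, Jak2 and Stat3 rose. Il10rb, the chain that Ifnlr1 shares with the receptors of other cytokines such as interleukin 22, was at 72.0 ± 5.10 (SD, n = 5) CPM in CD and 97.7 ± 13.4 (SD, n = 6) CPM in FFD mice, without overlap and with a log2 fold change of 0.44 (SE 0.092, adjusted p = 0.00348) by edgeR. The kinase Jak1 went from 107 ± 8.34 (SD, n = 5) to 138 ± 8.34 (SD, n = 6) CPM, with a log2 fold change of 0.36 (SE 0.067, adjusted p = 0.00219). Jak2 rose by 0.45 (adjusted p = 0.00152 by edgeR), neither kinase overlapping between the diets, and Stat3 rose by 0.34. Tyk2, the kinase that serves Ifnar1 and Il10rb, did not pass the test, with 34.6 to 38.6 CPM in CD and 38.2 to 46.1 CPM in FFD mice and a log2 fold change of 0.13 (SE 0.063, 95% interval -0.0049 to 0.27, adjusted p = 0.119). Of 12 inhibitors of signaling, Socs3 (0.64, adjusted p = 0.0412 by edgeR) and Ptpn6 (0.40, adjusted p = 0.00355) rose, Socs2 fell (-0.43, adjusted p = 0.0477) and 9 did not pass the test, Socs1 among them (0.13, 95% interval -0.55 to 0.81). The calls for both Socs genes lay near the threshold. Socs3 was lost without CD mouse 1, 2, 3 or 4 or FFD mouse 2, 5 or 6 (0.50 to 0.70, adjusted p 0.0529 to 0.0899 by edgeR), and also without TMM (0.46, adjusted p = 0.0735), with limma-voom (adjusted p = 0.0639) and with the robust fit (adjusted p = 0.0516). Socs2 was lost without CD mouse 1, 2, 3 or 4 or FFD mouse 1, 2, 4 or 5 (-0.46 to -0.30, adjusted p 0.0561 to 0.146 by edgeR), with DESeq2 size factors in edgeR (-0.41, adjusted p = 0.0556) and with the robust fit (adjusted p = 0.0511). Among the other interferon regulatory factors, Irf2 rose by 0.28, a call lost without TMM (0.12, adjusted p = 0.211 by edgeR). Irf3, Irf5 and Irf8 did not pass the test, and Irf4 was too low to test.

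Genes of other cells were mostly low. The counts of markers below stand beside 18.2% of all tested genes that rose and 18.6% that fell. Of 12 macrophage and monocyte markers, 3 rose (Cd14, C1qb and Mrc1). The summed level of the list was 86.4 to 127 CPM in CD and 128 to 159.8 CPM in FFD mice, most of it from Cd14. The defining marker Csf1r was at 2.01 and 2.49 CPM in the mean and did not pass the test. Mrc1 went from 1.40 to 4.11 CPM without overlap, with a log2 fold change of 1.54 (SE 0.20, adjusted p = 0.000863) by edgeR, a larger change than the median of the 44 genes. C1qb rose by 0.84 and Cd14 by 0.39. The 9 markers that did not pass the test had log2 fold changes from -0.42 (Adgre1) to 0.81 (Ly6c2), negative in Adgre1 and Cx3cr1 (-0.16) only. Of 10 neutrophil markers 3 could be tested and 1 rose (S100a8), at a summed level of 1.33 to 4.88 and 3.44 to 12.5 CPM. Siglech, which marks plasmacytoid dendritic cells, the main makers of type I interferon, had 13 counts in CD and 12 in FFD mice. One of 6 tested genes of that list rose (Ly6d), and its summed level (362 to 639 and 369 to 655 CPM) came mostly from Klk1, a gene that other cells express too. One of 4 tested dendritic cell markers rose (Itgax), at a summed level of 3.50 to 5.62 and 4.92 to 7.70 CPM. None of 2 tested T and B cell or 4 tested stromal markers passed the test, at 1.55 to 2.36 and 1.51 to 2.34 CPM and at 10.6 to 12.5 and 9.61 to 12.7 CPM. Within the epithelium, 8 of 10 markers of surface colonocytes rose (median 1.26, summed level 4527 to 7539 CPM in CD and 9305 to 16878 CPM in FFD mice) and 7 of 10 markers of dividing cells fell (median -0.67, 921 to 1301 and 384 to 918 CPM). No marker was at 0 in every mouse, and the part of these cells in the rise of the interferon genes was not tested.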

How the data were processed

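RNA of colonic epithelium from 5 CD and 6 FFD mice was sequenced, 1 library per mouse. The authors trimmed and mapped the reads to GRCm38 with the CLC Workbench 10.0.1 and deposited raw counts of reads per gene. Of the submitters' processing notes, DESeq2 1.22.2 under R 3.5.1 served their test and FastQC is a read quality check. Which annotation release was used, whether strand was used and how multi-mapping reads were treated was not given in the sources used here. That touches the 17 of 44 genes whose exons overlap another gene, and gene families with close copies.

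The counts were passed through filterByExpr (at a minimum count of 10 and a total of at least 15), which left 15044 of 52550 genes, scaled by TMM and fitted with diet as the only term in edgeR 4.0.16 (R 4.3.3), whose quasi-likelihood test was used, with Benjamini-Hochberg adjustment over all tested genes and a threshold of 0.05. The procedure was tested on simulated data. No 2 mice of a diet differed by less than sampling noise (the lowest chi-square, divided by its degrees of freedom, was 13.0), so each library was 1 replicate. Mice are named by diet and by the last number of the sample title. Gene lengths (the union of all exons), positions and overlaps came from GENCODE M21 for GRCm38, and promoters from RefSeq (GRCm38.p6). The members and all gene lists were chosen with earlier results of these data known. Every gene of the 44 is named. Some pathway and marker genes are not reported here, though they remain in the counts over all pathway genes. Values per mouse are given for the receptor chains, the transcription factors and, in each other group, the 3 genes with the smallest p, and the low, median and high value stands for the 6 FFD mice. Ranges for Bst2 and Usp18, and the leading gene of single mice, were added after values were seen. Log2 ratios of CPM between all pairs of receptor chains and of transcription factors were also added then and tested with exact permutation over mice. Alternatives were DESeq2 1.42.0 as a test, its size factors in edgeR, no TMM, no and a stricter filter (minimum count 50), limma-voom (limma 3.58.1), a robust fit, a replicate block and each mouse left out in turn.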

Additional observations from a re-analysis of the deposited data

Results flagged for a closer look

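In 6 genes the highest FFD mouse stood apart from the other 5 by Dixon's test at the 95% level, and in each of them this was FFD mouse 1. Irf7 was at 295.677 CPM there (next 148), Bst2 at 74.8493 (next 41.8), Mx1 at 16.4082 (next 10.2), Ddx60 at 85.2232 (next 52.1), Ifi44 at 62.8222 (next 33.2) and Tor3a at 54.4321 (next 39.3). In all, 88 groups were examined, the CD and the FFD mice of each of the 44 genes, and chance flags about 1 in 20 groups. The 6 values come from 1 mouse and are not independent of each other. No CD mouse stood apart in this way. Without FFD mouse 1 the log2 fold change was 1.30 for Irf7, 1.25 for Mx1, 1.55 for Ddx60, 1.31 for Ifi44 and 0.31 for Tor3a, with adjusted p by edgeR of 0.000993, 0.00183, 0.00104, 0.00132 and 0.0143, and for Bst2, which did not pass the test with that mouse, it was -0.13 (adjusted p = 0.531).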

How the results depend on the processing

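Over 19 alternatives, 27 (no TMM) to 34 (DESeq2) of the 44 genes rose, 31 to 34 with 1 mouse left out, and their median log2 fold change was 0.53 to 0.78. Of the 32 genes that rose, 27 kept the call in all 19. The number that fell was 1 with DESeq2 and 1 to 2 with 1 mouse left out, Ifitm3 being the call lost each time. Of the further pathway genes, 6 to 10 rose, and the number that fell was 0 with DESeq2 size factors in edgeR, 0 with the robust fit, 2 without TMM and 0 to 1 with 1 mouse left out. The cause was not tested. Among 835 single gene results under alternatives, 796 kept their direction and side of the threshold, 21 lost and 11 gained a call and 7 turned sign, none of them past the threshold: without TMM Ifnar1 (-0.045), Ifnar2 (-0.071), Irf1 (-0.0098), Bst2 (-0.014), Isg20 (-0.090) and Pml (-0.014), and without FFD mouse 1 Bst2 (-0.13, its range with 1 mouse left out being -0.13 to 0.29). Ifitm1 was not tested under the stricter filter.

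The mouse numbers were tried as a replicate block, in which FFD mouse 6 had no CD partner and so did not bear on the diet term. There, 31 of the 44 genes rose and 1 fell (Ifitm2), and 7 pathway genes rose and 1 fell. The calls not made there by edgeR were those of Tor3a (0.41, adjusted p = 0.0693), Ifitm3 (-0.99, adjusted p = 0.089) and, among the pathway genes, Socs3 (0.45, adjusted p = 0.104). Over all genes, the block called 1953 higher and 1829 lower, against 2740 and 2792 without it. Deviations from the group mean of mice with the same number correlated between -0.29 and 0.28 over the 5 pairs. Of 5 CD mice, 2 correlated best with their own number. This gives no clear sign of pairing by number, and 5 pairs are too few to exclude it. FFD mouse 4 had the lowest depth, and the type I and III interferon genes were too scarce in all mice to compare.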
